A study of Mus musculus with 48 samples.

Results

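The livers of HL and LH mice form the comparison in which both diets were switched at weaning, in opposite directions. HL mice came from dams fed diet H and were weaned onto diet L, and LH mice came from dams fed diet L and were weaned onto diet H, so the groups differed in both the maternal and the post-weaning diet and their effects cannot be told apart here. Diet H was a high-fat diet supplemented with selenium (Se) and folate and diet L was the same high-fat diet marginally deficient in both. The comparison holds 12 arrays of 48 in the series, 6 HL and 6 LH livers, chosen by their labels alone. The other livers were HH (diet H throughout) and LL (diet L throughout), and colon was measured in the same 4 groups.

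All mice were C57/BL6 offspring, described by the study as male, that were killed at 12 weeks of age after a fast and re-feeding. All 4 groups ate a high-fat diet, Se and folate always changed together, and litters are not given, so p-values measure the spread between these samples only. Each array compared Cy3-labelled liver RNA with a Cy5-labelled common reference RNA on an Agilent two-colour array, and a level below is the log2 ratio of mouse over reference. A difference is the HL mean minus the LH mean on that log2 scale, so that 1 is 2-fold, and values in brackets after a difference are its 95% confidence interval in limma. A probe was called when the groups differed more than 1.5-fold with a false discovery rate (FDR) under 0.05 over 41172 probes in limma.

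Se acts in the body mainly as selenocysteine, an amino acid built into selenoproteins such as the glutathione peroxidases and thioredoxin reductases. The liver takes up dietary Se and secretes it as selenoprotein P for other organs. Folate carries one-carbon units for nucleotide synthesis and for remethylating homocysteine to methionine, the source of the methyl groups used on DNA and proteins. The comparison asks whether livers on the same 2 diets in the opposite order ended with different transcript levels.

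Signal quality was alike in both groups. Between 55.1% and 62.2% of spots were well above background on the HL arrays and between 56.2% and 63.0% on the LH arrays. Each of the 6 liver slides carried 1 HL and 1 LH array, so every slide gives a difference of its own. The hepatocyte marker Alb, the plasma albumin, was well above background on all 12 arrays.

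In sex-linked genes and cell type markers, 3 livers stood furthest apart from the rest of their group. Values without them are given below for many of the lists and genes. Over all probes above background, other livers lay as far from their group. The mean squared deviation from the group mean was 0.101 in HL replicates 1 and 4 and 0.096 in HL replicate 5. It was 0.077 in HL replicate 2 and 0.063 in LH replicate 4, so leaving out the 3 does not remove every outlying liver. LH replicate 2 was kept, and its mean of sinusoidal endothelium markers was −0.67, against −0.03 to 0.25 in the other LH livers. HL replicate 2 had Xist, the RNA of the inactive X chromosome, at 1.42, against −4.48 to −3.24 in the other HL livers and −4.32 to −3.09 in the LH livers. In the same liver Eif2s3y, a Y-linked gene, was at −4.56 against 0.20 to 0.73 in the other HL livers, which goes against the description of the mice as male. HL replicate 1 carried pancreatic enzymes: the mean of 6 acinar markers lay 3.17 above the mean of the 12 livers, against −0.55 to 0.26 in the other HL and −0.48 to −0.15 in the LH livers. The pancreatic elastase gene Cela2a was at 1.95 there and the lipase gene Pnlip at 1.16. LH replicate 4 carried fat cell transcripts. The adipokine gene Adipoq was at 2.03 in that liver against −2.51 to −1.74 in the other LH livers, and the mean of 4 adipocyte markers lay at 2.95. Cfd and Plin1 were at 2.25 and 2.73 there, while the leptin gene Lep was well above background on 1 of the 12 arrays.

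**Figure D1:**
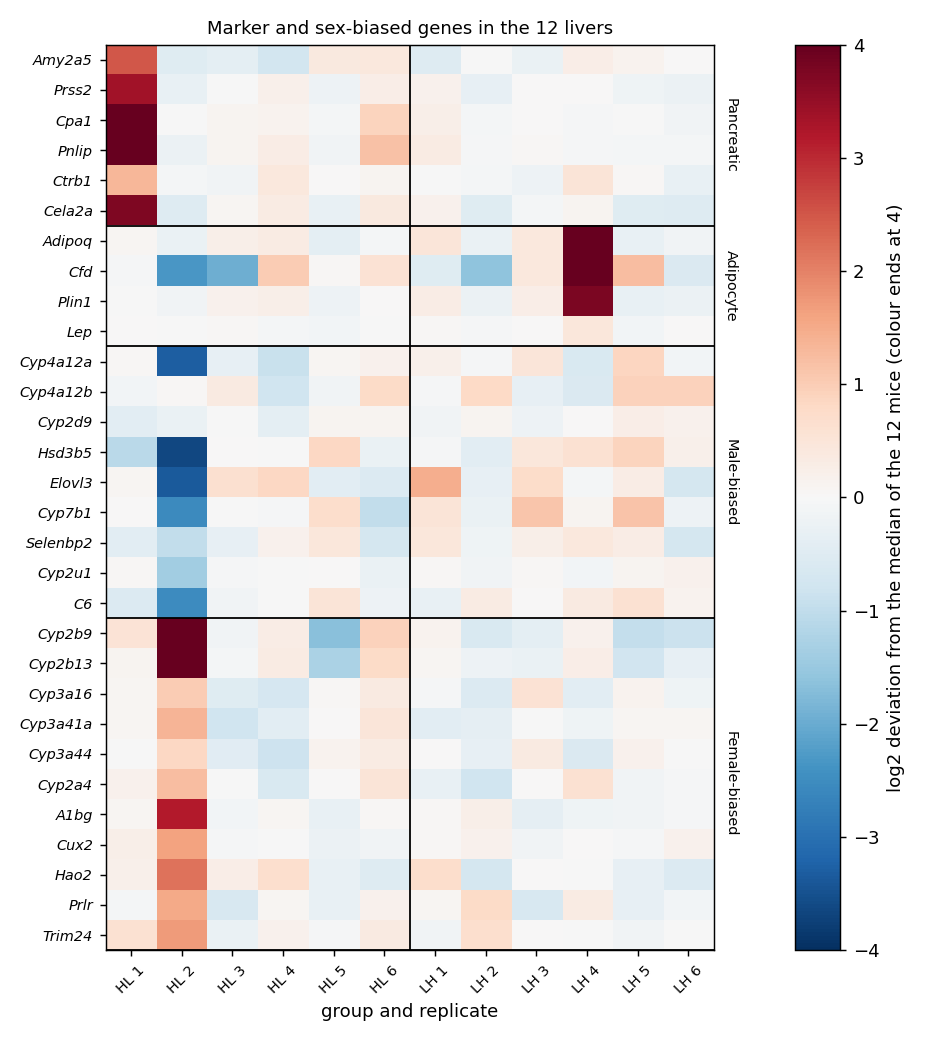
Heat map of pancreatic, adipocyte, male-biased and female-biased genes (rows, 11 of the 12 female-biased genes shown) in the 6 HL and 6 LH livers (columns). Colour is the log2 deviation from the median of the 12 livers, with the scale ending at 4. HL replicate 1 stands out in the pancreatic block, LH replicate 4 in the adipocyte block and HL replicate 2 in both sex-biased blocks.

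No probe was called between HL and LH livers, 0% of the 41172 tested, and the lowest FDR in limma was 1.00. At an unadjusted p under 0.05, 717 probes (1.74%) differed, 438 higher in HL (1.06%) and 279 higher in LH (0.678%), and with median centring in place of loess the split was 169 to 67. With the slide as a block it was 576 to 424. By sign alone, with no test, 613 probes were higher in HL and 591 higher in LH on all 6 slides. Among 18433 named genes, 1 probe each, 321 (1.74%) had such a p, 215 higher in HL (1.17%) and 106 in LH (0.575%). These shares are the background for every count below. They are low for this threshold, so a list that passes them is not by that alone evidence of a difference. The count of probes at this p was 1113 without HL replicate 3 and 1526 without HL replicate 5, and no probe was called in either case. The median difference over all named genes was 0.01 and the HL mean was higher for 52.5% of them.

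The intervals come from the limma fit without a term for the slide and give the size of difference that this fit could resolve. With the slide as a block, 1000 probes in place of 717 had an unadjusted p under 0.05 in limma. For 18264 named genes (99.1%) the 95% confidence interval of the difference lay within 2-fold in both directions, and for 17096 it lay within 1.5-fold. The median interval reached 0.22 to either side of its estimate.

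The selenoprotein genes sat close together in the 2 groups. Of 24 measured, 8 had the higher mean in HL and 16 in LH, with a median difference of −0.04, and none had an unadjusted p under 0.05, against 1.74% of all named genes. Every interval of the 24 lay within 2-fold and 21 lay within 1.5-fold. Gpx4, the glutathione peroxidase that reduces lipid hydroperoxides in membranes, had a lowest, median and highest level of −0.31, −0.06 and 0.40 in HL and of −0.42, −0.22 and −0.05 in LH. The ranges overlapped, and the difference of 0.19 had an interval from −0.07 to 0.44. The HH mean of Gpx4 was 0.38 and the LL mean was −0.07.

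Selenow, a small muscle-rich selenoprotein, had levels from −1.02 to −0.14 in HL (median −0.53) and from −1.06 to −0.41 in LH (median −0.70). Its difference was 0.21 with an interval from −0.08 to 0.50. Selenop, which encodes the plasma Se carrier made by hepatocytes, spanned 1.25 to 1.95 in HL and 0.95 to 1.59 in LH. Its difference of 0.23 (−0.18 to 0.63) had the highest estimate among the selenoproteins, and its interval passed 1.5-fold. Gpx1, the cytosolic glutathione peroxidase whose transcript is known to be sensitive to Se supply, differed by 0.06 (−0.21 to 0.34). Txnrd1, Txnrd2 and Txnrd3, the thioredoxin reductases, differed by −0.11, −0.12 and −0.17. Dio1, the hepatic deiodinase that activates thyroid hormone, differed by −0.13 (−0.64 to 0.38), with no usable spot in HL replicate 6. Sephs2, the selenoprotein that makes selenophosphate, had the lowest estimate at −0.21 (−0.72 to 0.31). HL livers spread wider than LH livers for Sephs2, with an SD of 0.65 against 0.23 (n = 6 each).

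The genes that make and insert selenocysteine differed as little. The 8 measured had a median difference of −0.02, with 0 below an unadjusted p of 0.05 and all intervals within 1.5-fold. Pstk, the kinase that acts on the selenocysteine tRNA, was higher in HL on 6 of 6 slides, by 0.14 on average (−0.09 to 0.38). On all 6 slides 312 named genes (1.69%) were higher in HL and 261 (1.42%) were higher in LH.

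Genes of folate metabolism were split evenly. Of 25 measured, 12 had the higher mean in HL and 13 in LH, the median difference was −0.01, and 0 had an unadjusted p under 0.05. All intervals lay within 2-fold and 20 within 1.5-fold. Mthfs, which returns 5-formyl folate to the cycle, had levels of 1.06, 1.48 and 1.66 (lowest, median, highest) in HL and 1.03, 1.19 and 1.38 in LH. The ranges overlapped, and the difference was 0.25 (−0.04 to 0.53). Ggh, which trims the glutamate tail of stored folate, differed by 0.28 (−0.08 to 0.64). Gart, an enzyme of purine synthesis that uses a folate-borne formyl group, differed by −0.26 (−0.61 to 0.10). Mtr, methionine synthase, differed by −0.02 (−0.28 to 0.25). Folr2, the folate receptor of macrophages, differed by 0.28 (−0.22 to 0.78), in the direction of the macrophage markers described below. The part of those cells in the Folr2 value was not tested.

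The methionine cycle and methyl transfer genes had a median difference of −0.01 over 21 measured, 10 higher in HL and 11 in LH, with 0 below an unadjusted p of 0.05. Aldh7a1, which oxidises betaine aldehyde and other aldehydes, was furthest from 0. Its levels were 1.14, 2.15 and 2.64 (lowest, median, highest) in HL and 2.06, 2.50 and 2.74 in LH. The difference was −0.41 (−0.88 to 0.07), and a second probe of the gene gave −0.06. Mat2a, the methionine adenosyltransferase of extrahepatic tissues, differed by 0.18 and Bhmt, the betaine-homocysteine methyltransferase, by −0.09 (−0.72 to 0.53). The DNA methyltransferase genes Dnmt1, Dnmt3a and Dnmt3b differed by −0.14, 0.14 and −0.10.

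**Figure D2:**
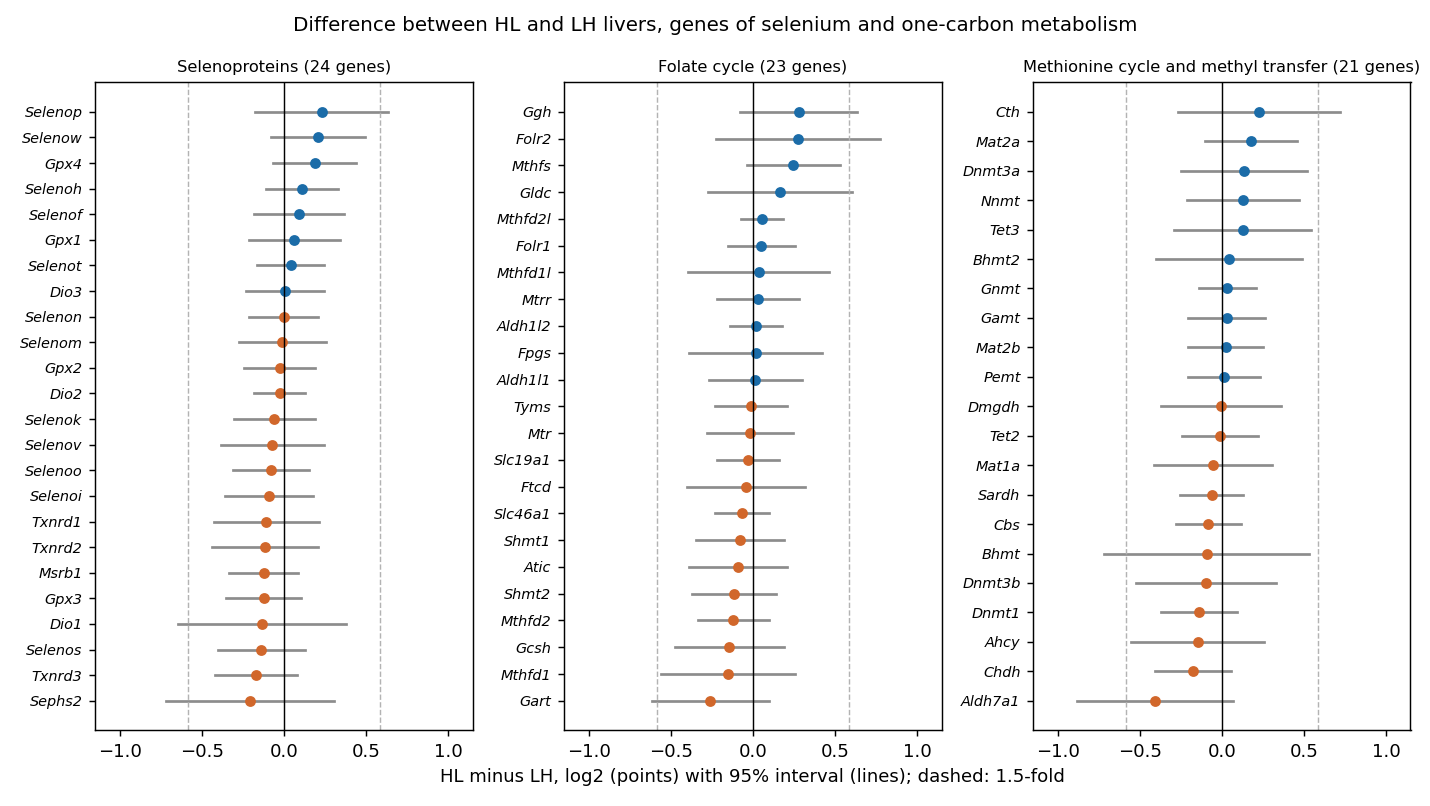
HL minus LH difference (log2, horizontal axis) for selenoprotein, folate cycle and methionine cycle genes (2 of the 25 folate cycle genes are not shown). Points are estimates, lines are 95% confidence intervals from limma (6 HL and 6 LH mice), and dashed lines mark 1.5-fold. All intervals shown cross 0.

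Chaperones of the endoplasmic reticulum (ER) had higher means in LH for nearly the whole list. These genes fold secreted proteins and are turned on together by the unfolded protein response. Of 25 measured, 24 had the higher mean in LH and 1 in HL. The median difference was −0.28, and 2, Pdia6 and Calr, had an unadjusted p under 0.05 towards LH, against 0.575% of named genes in that direction. None was called. The list median stayed below 0 in all 29 other settings tried, and it was −0.23 without HL replicate 2 and −0.19 without HL replicate 1. Without HL replicates 1 and 2 and LH replicate 4 it was −0.08, with 22 of 25 means still higher in LH and 0 genes at an unadjusted p under 0.05. For this list HL replicates 2 and 1 had the lowest HL means and LH replicate 4 the highest LH mean. Leaving them out could thus only shrink the difference between the group means. The list median was −0.48 without HL replicates 5 and 6, and −0.38 to −0.19 when 1 replicate was left out.

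Pdia6, a protein disulphide isomerase, had levels of −0.83, −0.42 and 0.24 (lowest, median, highest) in HL and −0.39, −0.01 and 0.38 in LH. The LH mean was higher on 5 of 6 slides, and the ranges overlapped. The difference was −0.40 (SE 0.17, −0.76 to −0.04, FDR 1.00 in limma), and it was −0.31 without HL replicate 2 and −0.18 without the 3 livers that stood apart. Its other probes gave −0.27 and −0.59.

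Calr, the calcium-binding lectin calreticulin, ran from −0.88 to 0.03 in HL and from −0.36 to 0.28 in LH. Its difference was −0.35 (SE 0.16, −0.69 to −0.02), with LH higher on 4 of 6 slides, and it was −0.12 without the 3 livers. Hsp90b1, the ER form of Hsp90, spanned −0.50 to 0.66 in HL and 0.07 to 0.79 in LH and differed by −0.46 (SE 0.23, −0.93 to 0.01), while its second probe gave −0.75. Hyou1, a large ER chaperone, spanned −0.20 to 2.37 in HL and 0.81 to 2.22 in LH and differed by −0.70. For Hyou1 the HL livers held both the lowest and the highest value of the 12, and the lowest values were those of HL replicates 2 and 1. Without the 3 livers Hyou1 differed by −0.25 and Hsp90b1 by −0.18. Hspa5 (BiP), the main ER Hsp70, differed by −0.29 (−0.78 to 0.19), and by −0.06 without them. Derl3, which helps to export misfolded proteins, had the largest estimate of the list at −0.99 with the widest interval (−2.29 to 0.30). Derl3 was at 3.49 in LH replicate 4 and at −1.55 in HL replicate 2, the highest and the lowest of the 12 livers, and its difference was −0.50 without LH replicate 4 and −0.05 without the 3 livers. Among the sensors and transcription factors of the response, Xbp1 differed by −0.35, Atf4 by −0.24, Ern1 by −0.10 and Atf6 by −0.08, each with an interval that crossed 0, and Xbp1 by −0.19 without HL replicate 1. Ddit3, the pro-apoptotic factor of the response, differed by −0.01. Dnajb9, a co-chaperone, was the one gene with the higher HL mean, by 0.32.

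Per mouse, the mean of the ER list relative to the 12 livers ran in HL from −0.64 (replicate 2) to 0.28 (replicate 3), with a median of −0.16. The LH livers lay between −0.00 and 0.29. The HL liver was above the LH liver of its slide on 2 of 6 slides, and the slide differences ran from −0.70 to 0.26. The HH livers lay between −0.66 and −0.13 and the LL livers between −0.24 and 0.31. Side by side, the list median was 0.21 for HL minus HH and 0.49 for LH minus HH, which share the HH samples, and −0.11 for HL minus LL and 0.17 for LH minus LL.

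**Figure D3:**
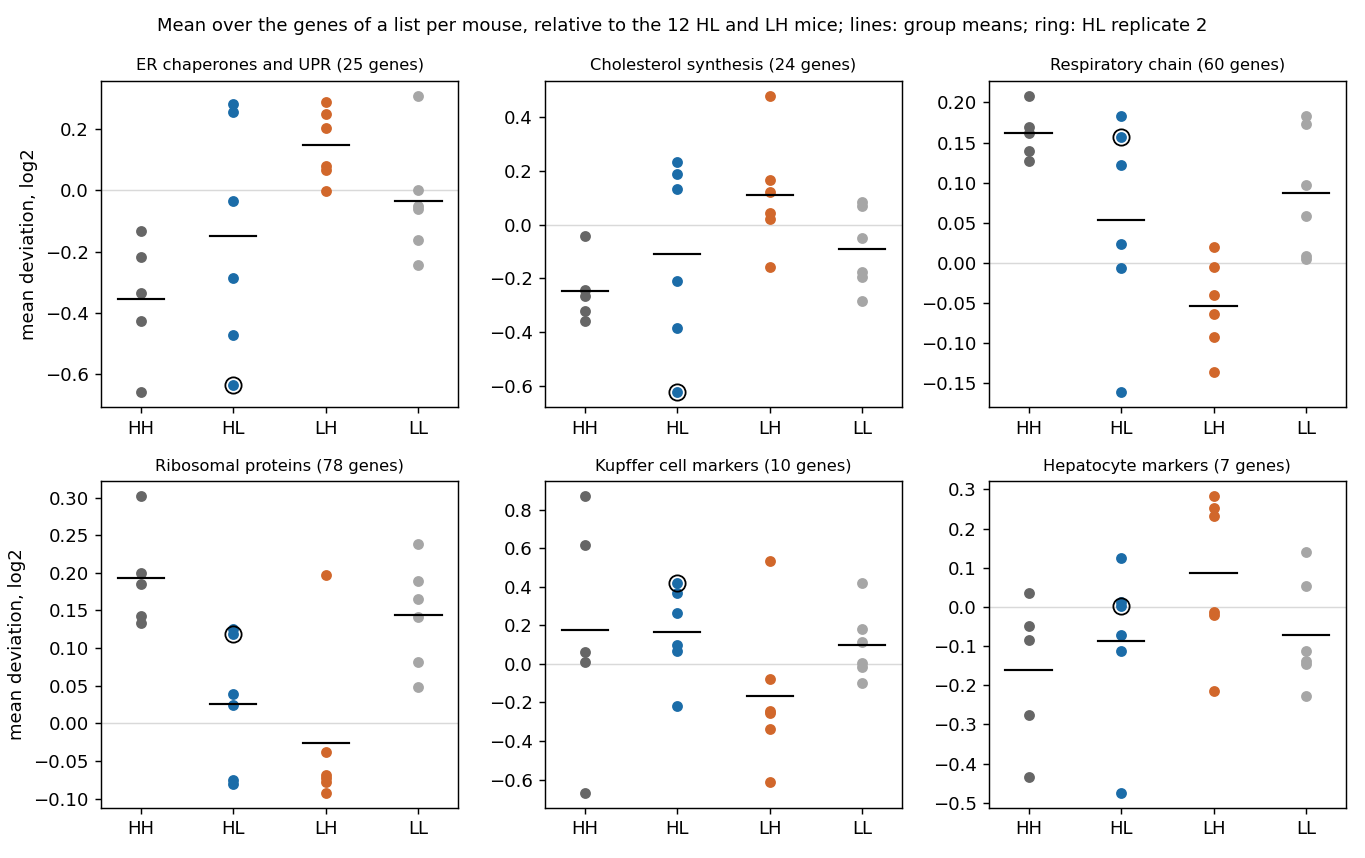
Mean over the genes of 6 lists in each liver (points), as a log2 deviation from the mean of the 12 HL and LH livers, for HH (5 mice), HL, LH and LL (6 mice each). Horizontal bars are group means and the ring marks HL replicate 2, the lowest HL liver for ER chaperones (−0.64) and for cholesterol synthesis (−0.63). The panel titled Kupffer cell markers holds the list of Kupffer cell and other macrophage markers.

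Promoters of this list are shown because many of its genes are known to share a regulatory element. The ER stress response element, CCAAT and CCACG with 9 bases between them, is bound by NF-Y at its CCAAT part and by ATF6 or XBP1 at its CCACG part. It was searched on both strands in windows of 300 bases, 250 before to 50 after each gene start, in RefSeq sequences of build GRCm38.p6. The element was present in 39 of 32851 promoters (0.119%) and in 9 of the 22 list genes with a promoter in that table. The sequences below run 5′ to 3′ on the gene's strand, and capitals mark the element on either strand. Pdia6 is at chr12:17266339-17266638 on the plus strand, Calr at chr8:84846882-84847181 on the minus strand, Hsp90b1 at chr10:86705395-86705694 on the minus strand, where it has 2 matches, and Creld2 at chr15:88819396-88819695 on the plus strand.
Pdia6: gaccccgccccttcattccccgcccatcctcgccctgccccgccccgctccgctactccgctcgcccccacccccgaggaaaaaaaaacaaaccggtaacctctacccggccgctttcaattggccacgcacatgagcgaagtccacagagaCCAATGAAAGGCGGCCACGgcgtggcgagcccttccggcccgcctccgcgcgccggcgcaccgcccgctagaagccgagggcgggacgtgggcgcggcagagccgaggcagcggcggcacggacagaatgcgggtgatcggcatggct
Calr: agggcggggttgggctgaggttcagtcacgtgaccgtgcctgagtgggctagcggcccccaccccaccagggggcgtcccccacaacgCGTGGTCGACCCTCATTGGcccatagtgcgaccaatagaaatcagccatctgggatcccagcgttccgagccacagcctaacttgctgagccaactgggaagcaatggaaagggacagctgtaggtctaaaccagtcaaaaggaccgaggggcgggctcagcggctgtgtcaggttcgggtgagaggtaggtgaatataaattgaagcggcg
Hsp90b1: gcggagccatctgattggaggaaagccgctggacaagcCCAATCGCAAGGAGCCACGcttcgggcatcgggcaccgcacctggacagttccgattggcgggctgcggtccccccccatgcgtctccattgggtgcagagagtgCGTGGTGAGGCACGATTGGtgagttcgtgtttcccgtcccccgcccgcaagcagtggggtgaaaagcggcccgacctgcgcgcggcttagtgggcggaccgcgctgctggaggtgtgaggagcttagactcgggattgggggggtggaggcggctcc
Creld2: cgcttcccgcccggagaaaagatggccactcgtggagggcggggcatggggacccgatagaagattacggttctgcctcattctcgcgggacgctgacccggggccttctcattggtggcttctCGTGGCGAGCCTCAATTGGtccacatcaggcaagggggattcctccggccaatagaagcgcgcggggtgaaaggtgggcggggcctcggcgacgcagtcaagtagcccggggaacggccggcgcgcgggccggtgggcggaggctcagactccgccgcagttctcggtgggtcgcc
The other list genes with the element were Hspa5, Canx, Dnajc3, Derl3 and Syvn1. The 9 genes with it had a median difference of −0.36, between −0.99 and −0.20, and the 13 without it a median of −0.17, between −0.67 and 0.32. This is a description of 2 small groups over all the HL and LH livers, and a match is not evidence of binding. Without HL replicates 1 and 2 and LH replicate 4 the median of the whole list was −0.08. The genes with and without the element were not compared in that setting.

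Cholesterol synthesis genes showed the same direction, with a size that depended on the livers included. Of 24 measured, 23 had the higher mean in LH, with a median difference of −0.23 and 0 genes at an unadjusted p under 0.05. The median was −0.11 without HL replicate 2, −0.14 without HL replicate 1 and −0.01 without those livers and LH replicate 4, when 14 of 24 means were higher in LH. HL replicates 2 and 1 had the lowest HL means of this list, so leaving them out could only raise the HL mean. The median was −0.31 without HL replicates 5 and 6, −0.29 to −0.11 when 1 replicate was left out, and below 0 in all 29 other settings. Msmo1, a sterol demethylating oxidase, had levels of −2.13, −0.90 and −0.14 in HL and −1.04, −0.49 and 0.35 in LH. Its difference was −0.53 (−1.07 to 0.01) and −0.29 without HL replicate 2. Fdps, farnesyl diphosphate synthase, differed by −0.46, which became −0.05 without the 3 livers, and Srebf2, the transcription factor that drives the pathway, by −0.22. HL livers were higher on 2 of 6 slides for the list mean.

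Other lipid lists lay nearer to 0. Fatty acid oxidation genes had a median difference of −0.08 over 29, 22 higher in LH, and fatty acid synthesis genes −0.02 over 19, with 0 genes at an unadjusted p under 0.05 in either. Hadhb, a subunit of the mitochondrial trifunctional protein, differed by −0.20, and Elovl6, a fatty acid elongase, by 0.35 (−0.30 to 1.01). Bile acid genes had 15 of 18 means higher in LH and a median of −0.05. Cyp7b1, the oxysterol hydroxylase of the alternative bile acid pathway, was higher in LH on 6 of 6 slides. Its levels were −1.83, 0.71 and 1.44 in HL and 0.47, 1.04 and 1.87 in LH, and the lowest was HL replicate 2. The difference of −0.88 (−1.84 to 0.09) became −0.46 without that liver. Cyp7a1, the first enzyme of the classical pathway, differed by 0.05 (−0.76 to 0.86), an interval that leaves differences over 1.5-fold possible. Slc10a1, the bile acid importer of hepatocytes, was higher in LH on 6 of 6 slides, with a difference of −0.27 (−0.61 to 0.06).

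Genes of the mitochondrial respiratory chain leaned towards HL. Of 60 measured, 47 had the higher mean in HL and 13 in LH, with a median difference of 0.11. An unadjusted p under 0.05 was reached by 5 genes, all higher in HL, against 1.17% of named genes in that direction, and none was called. The median was 0.08 with 2 such genes without HL replicate 2, and 0.07 with 45 of 60 higher in HL and 2 such genes without HL replicates 1 and 2 and LH replicate 4. It stayed above 0 in all 29 other settings.

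Ndufb5, an accessory subunit of complex I, was the list member whose groups did not overlap. Its levels were −0.33, −0.06 and 0.17 in HL and −0.65, −0.41 and −0.34 in LH, so every HL liver lay above every LH liver. The difference was 0.36 (SE 0.10, 0.15 to 0.57, FDR 1.00 in limma), with HL higher on 6 of 6 slides and 0.35 without HL replicate 2. Among named genes, 8 (0.0434%) had all HL livers above all LH livers and 3 (0.0163%) the opposite. The 3, named here for that reason, were Gaa, the lysosomal glucosidase that breaks down glycogen, Lamb1, a laminin chain of the basement membrane, and Olfr1250, an olfactory receptor whose probe was above background on 0 arrays. Gaa had its highest HL level at 0.91 and its lowest LH level at 0.97. Over all probes, 27 (0.0656%) had groups that did not overlap, 16 with HL above (0.0389%) and 11 with LH above (0.0267%). Ndufb4 differed by 0.28 (0.05 to 0.51) and Ndufs4 by 0.21 (0.03 to 0.40), both also complex I subunits. The others with an unadjusted p under 0.05, named after their values were seen, were Ndufa7 at 0.26 (0.01 to 0.51) and Ndufa4 at 0.23 (0.02 to 0.45). In these genes the HH means were −0.06, 0.29 and −0.02 and the LL means −0.08, −0.09 and −0.33, in the order Ndufb5, Ndufb4, Ndufs4.

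The mean of the list per mouse ran from −0.16 (replicate 5) to 0.18 (replicate 4) in HL and from −0.14 to 0.02 in LH, and HL was higher on 5 of 6 slides. All 5 HH livers lay between 0.13 and 0.21. Ribosomal protein genes had 50 of 78 means higher in HL, a median difference of 0.04 and 0 genes at an unadjusted p under 0.05. LH replicate 4 had the highest LH mean for the ribosomal list, 0.20, against −0.09 to −0.04 in the other LH livers. Rpl41 differed by 0.15 (−0.06 to 0.36) and Rps19 by 0.12 (−0.22 to 0.47). Pfdn1, a subunit of the prefoldin chaperone, differed by 0.31 (−0.16 to 0.78), and by 0.11 without HL replicate 1.

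Markers of Kupffer cells and other macrophages had the higher mean in HL for 10 of 10 genes, with a median difference of 0.30. The list holds markers of Kupffer cells, which line the sinusoids and clear particles from portal blood, and markers shared with other macrophages. Timd4, a receptor for apoptotic cells on long-lived Kupffer cells, had levels of 1.28, 1.70 and 1.99 in HL and 0.71, 1.04 and 1.80 in LH. The difference was 0.52 (SE 0.17, 0.17 to 0.87, FDR 1.00 in limma), and it was 0.51 without HL replicate 2. It was the one macrophage marker with an unadjusted p under 0.05. Clec4f differed by 0.29, Vsig4 by 0.30, Cd5l by 0.41 and Marco by 0.55, each with an interval that crossed 0. The list mean was higher in HL on 5 of 6 slides. The exception was slide 3, where LH replicate 3 had the highest mean of the 12 livers (0.53) and HL replicate 3 the lowest HL mean (−0.22). The list median was 0.25 without HL replicates 1 and 2 and LH replicate 4. It was 0.21 without HL replicate 2, 0.40 without LH replicate 3 and 0.17 with the local background as deposited. In whole liver RNA, fewer cells of a type and less RNA per cell cannot be told apart.

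Hepatocyte markers had the opposite sign. All 7 had the higher mean in LH, the median difference was −0.13, and Apoa1 and Serpina1c had an unadjusted p under 0.05. Apoa1, the main protein of high-density lipoprotein, had levels of 1.80, 2.07 and 2.24 in HL and 1.99, 2.33 and 2.50 in LH. Its difference was −0.26 (SE 0.09, −0.44 to −0.08, FDR 1.00 in limma), with LH higher on 5 of 6 slides. Alb differed by −0.18 (−0.54 to 0.18). The part of cell composition in the other lists was not tested.

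T and NK cell markers had 5 of 6 means higher in HL, and 3, Klrb1c, Cd3d and Nkg7, had an unadjusted p under 0.05. Klrb1c, the NK1.1 receptor, had levels of 0.44, 0.62 and 0.94 in HL and 0.17, 0.27 and 0.53 in LH. HL was higher on 6 of 6 slides, by 0.33 on average (SE 0.10, 0.13 to 0.54, FDR 1.00 in limma). Its second probe was not well above background. Cd3e, the invariant T cell receptor chain, differed by −0.02 (−0.28 to 0.25). The count at an unadjusted p under 0.05 was 1 without HL replicate 2 and 0 without the 3 livers that stood apart.

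S100a8 and S100a9, the calprotectin genes of neutrophils and monocytes, had HL means 1.75-fold and 1.78-fold above LH. S100a8 had levels of −0.75, −0.08 and 0.84 in HL and −0.97, −0.87 and −0.38 in LH. In total 3 HL livers lay above all LH livers and the others lay among them. The difference was 0.80 (SE 0.27, 0.24 to 1.37, FDR 1.00 in limma), and it was 0.64 without HL replicate 2 and 0.48 without HL replicates 1 and 2 and LH replicate 4. The difference of S100a9 went from 0.83 to 0.43 without these livers. Of 6 neutrophil markers measured, 4 had the higher mean in HL. The granule genes Ngp, Camp and Elane were well above background on 0 of 12 arrays. Acute phase genes went both ways. Orm2 and Orm3, orosomucoids, differed by 0.32 and 0.52 and Hp (haptoglobin) and Serpina3m by −0.24 each, all with an unadjusted p under 0.05, and 10 of 22 means were higher in HL. Orm3 was 0.31 without HL replicate 2 and −0.03 with the local background as deposited. Saa1 and Saa2, the inducible serum amyloid A genes, differed by 0.06 and 0.12. Cxcl10, an interferon-induced chemokine, differed by 0.52 (0.00 to 1.03), while the interferon list had a median of 0.06 over 20 genes.

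**Figure D4:**
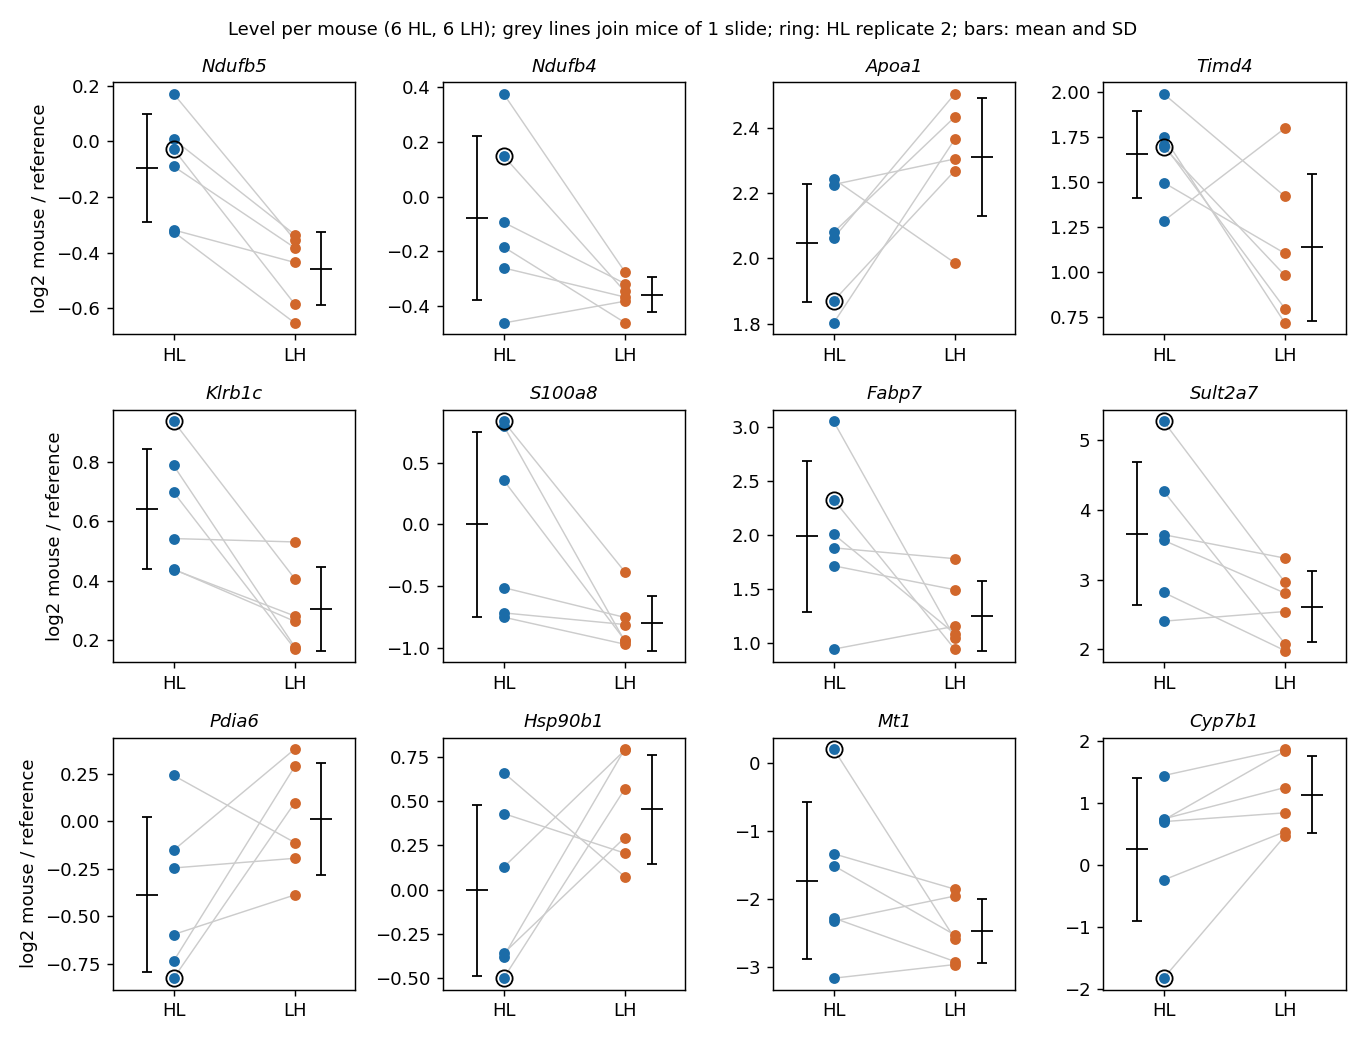
Level (log2 mouse over reference) of 12 genes in the 6 HL and 6 LH livers. Grey lines join the livers of 1 slide, bars beside the points are the mean and SD, and the ring marks HL replicate 2. Ndufb5 is the panel in which the groups do not overlap, and the ringed liver is the extreme HL liver for Klrb1c, S100a8, Sult2a7, Pdia6, Hsp90b1, Mt1 and Cyp7b1.

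Most of the difference in sex-biased liver genes went with HL replicate 2. The 12 female-biased genes all had the higher mean in HL, with a median of 0.34, and this became 0.03 with 7 of 12 higher in HL without that liver. Cyp2b9, a female-biased P450, was at 3.46 in HL replicate 2, and its difference of 1.23 became 0.41 without it. The 9 male-biased genes all had the higher mean in LH, with a median of −0.68, and −0.27 without HL replicate 2. The 9 means remained higher in LH in that setting, and the list mean was higher in LH on 6 of 6 slides, by 0.15 to 1.99. Cyp4a12a, a fatty acid hydroxylase, differed by −0.84 and by −0.31 without HL replicate 2. C6, a complement component, differed by −0.68 and by −0.27. Of the sex chromosome genes themselves, Xist differed by 0.87 and Eif2s3y, Ddx3y, Kdm5d and Uty by −0.65, −0.56, −0.24 and −0.03. Without HL replicate 2 these differences were 0.01, 0.18, 0.17, 0.02 and 0.16.

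Antioxidant and metal genes gave few differences. Of 24 targets of Nrf2, the transcription factor of the oxidative stress response, 13 had the higher mean in HL and the median was 0.03. Nqo1, a quinone reductase, had levels of −1.31, −0.56 and −0.18 in HL and −1.30, −1.04 and −0.48 in LH, a difference of 0.39 (0.01 to 0.77). Of 29 zinc and iron genes, 2 had an unadjusted p under 0.05, both higher in LH. Tfr2, the hepatic transferrin receptor that senses iron, differed by −0.21 (−0.39 to −0.03) and Slc39a7, a zinc exporter of the ER, by −0.27 (−0.50 to −0.04). Mt1, metallothionein, differed by 0.73 (−0.05 to 1.52) and by 0.35 without HL replicate 2, which was the highest at 0.21.

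A fold over 1.5 between the means, with no test, was reached by 63 named genes (0.342%), 40 higher in HL and 23 in LH. This number rested on the livers that stood apart. It was 49 without HL replicate 1, 34 without HL replicate 2, 58 without LH replicate 4 and 12 without all of these. Of the 63 genes, 39, 30, 50 and 5 stayed beyond 1.5-fold in the same direction in these settings. The 5 were Fabp7, Amer2, Cela3b and Cpb1, higher in HL, and Mtnr1a, higher in LH. Cela3b and Cpb1 are pancreatic enzymes, and both were also raised in HL replicate 6. They were at −2.82 and −2.69 in that liver, against −4.72 to −4.06 and −4.59 to −3.97 in HL replicates 2 to 5.

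Fabp7, a fatty acid binding protein, had levels of 0.94, 1.94 and 3.05 in HL and 0.94, 1.12 and 1.78 in LH. Its difference was 0.74 (SE 0.26, 0.21 to 1.27, FDR 1.00 in limma) and 0.61 without the 3 livers. Amer2, a regulator of Wnt signalling, had levels of 0.69, 1.07 and 2.79 in HL and 0.13, 0.55 and 1.06 in LH, and HL was higher on 6 of 6 slides. Its difference was 0.69 and its highest value was HL replicate 3. Mtnr1a, a melatonin receptor, was higher in LH on 6 of 6 slides, with levels of 0.16 to 1.44 in HL and 1.11 to 1.96 in LH and a difference of −0.68 (−1.34 to −0.03). Sult2a7, a sulfotransferase, had levels of 2.40, 3.60 and 5.27 in HL and 1.98, 2.67 and 3.31 in LH. Its difference was 1.05 (SE 0.38, 0.26 to 1.84), and it was 0.72 without HL replicate 2, the highest liver.

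The other genes with a fold over 1.5 and the lowest p-values in each direction had differences between 0.62 and 0.82 in size. Higher in HL were Cyp26b1, a retinoic acid hydroxylase (0.75, 0.07 to 1.43), Wfdc17, a secreted protein of myeloid cells (0.62, 0.07 to 1.18), and Acnat2, an acyltransferase of peroxisomes (0.71, −0.00 to 1.43). Higher in LH were Serpine2, a protease inhibitor (−0.62, −1.19 to −0.06), Sdf2l1, an ER protein (−0.67, −1.42 to 0.08), Asns, asparagine synthetase (−0.73, −1.57 to 0.11), Cidea, a lipid droplet protein (−0.72, −1.56 to 0.12), and Moxd1, a monooxygenase (−0.82, −1.76 to 0.12). Serpine2 was −0.37 and Sdf2l1 −0.34 without HL replicate 2. Cidea reached 1.52 and Moxd1 3.29 in LH replicate 4, the liver with fat cell transcripts, against LH medians of −0.72 and 0.28. Without that liver the differences were −0.33 for Cidea, −0.32 for Moxd1 and −0.42 for Asns. Without the 3 livers the differences were −0.15 for Serpine2, −0.09 for Sdf2l1, −0.24 for Cidea, −0.13 for Moxd1, −0.39 for Asns and 0.32 for Acnat2.

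**Figure D5:**
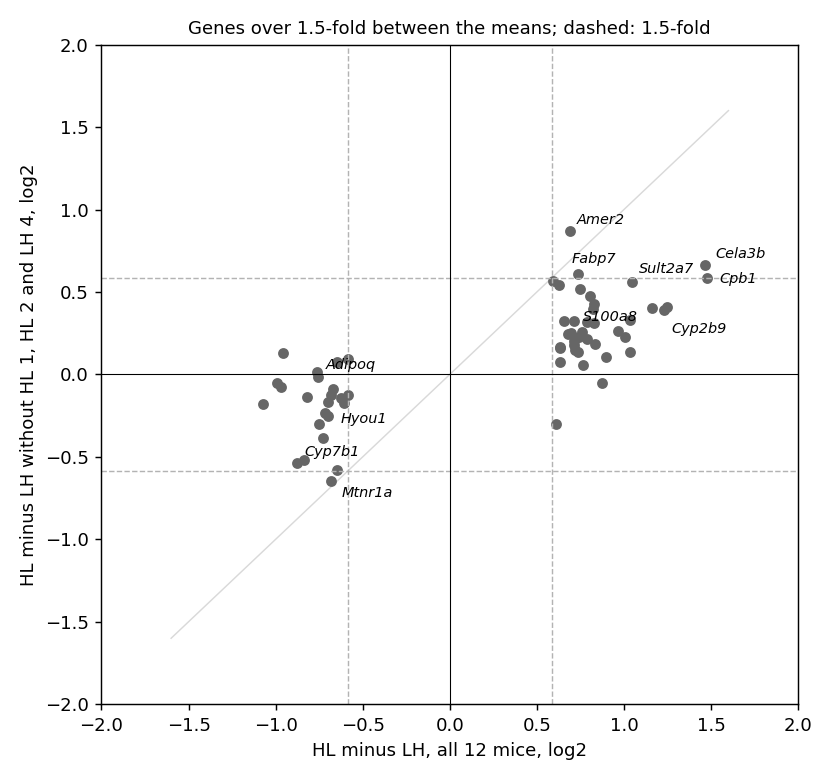
Of the 63 named genes with a fold over 1.5 between HL and LH means, all but 1 are drawn: difference over all 12 livers (horizontal, log2) against the difference without HL replicates 1 and 2 and LH replicate 4 (vertical, log2). Dashed lines mark 1.5-fold and the grey diagonal marks equality; 5 genes stay beyond 1.5-fold in the same direction.

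Most of the remaining lists lay near 0. Xenobiotic P450s and their receptors had a median difference of 0.01 over 26 genes, glucose and insulin response genes −0.06 over 18, glucocorticoid response genes 0.03 over 11 and cell cycle genes 0.02 over 19, with 0 genes at an unadjusted p under 0.05 in these lists. Cyp2b10, a P450 induced by xenobiotics, differed by 0.77 and by 0.09 without HL replicate 2. The pancreatic list had a median of 0.73, and 0.14 without HL replicate 1, and the adipocyte list −0.67, and −0.03 without LH replicate 4. Among the other cell type lists, B cell markers had a median of 0.19 over 4 genes, 3 of them higher in HL. That median stayed above 0 in all 29 other settings, with 0 genes at an unadjusted p under 0.05 in the main fit. Medians were 0.02 over 6 genes for sinusoidal endothelium, −0.02 over 6 for stellate cells, −0.03 over 5 for cholangiocytes and −0.00 over 3 for erythroid cells. Lrat, which stores retinol in stellate cells, differed by 0.31 (0.02 to 0.61) and Hba-a1, a haemoglobin chain, by 0.36 (0.08 to 0.64). These were the markers of lowest p in lists that went both ways. Stellate cell markers had 3 means higher in HL and 3 in LH (lowest −0.13), and erythroid markers 1 and 2 (lowest −0.18).

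Clock genes had medians near 0 as well. The 10 genes that peak with Dbp had a median difference of 0.03 and the 6 that peak with Bmal1 0.04. Beside HH, which both share as a comparison group, the Dbp-phase median was 0.64 for HL and 0.61 for LH. Beside LL it was 0.16 for HL and 0.10 for LH. The 5 HH livers were scattered, with Dbp-phase list means from −1.51 to 0.00 relative to the HL and LH livers (SD 0.61). The HL livers lay between −0.50 and 0.32 and the LH livers between −0.54 and 0.35. The cause of the gap to HH was not tested.

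In the colon of the same groups, 0 probes (0%) were called between HL and LH and 950 (2.31%) had an unadjusted p under 0.05. The difference between liver and colon in the HL against LH contrast was tested directly in limma over 41172 probes. It gave 0 calls (0%), and 1050 probes (2.55%) had an unadjusted p under 0.05. The ER list had a median of 0.04 in colon and the respiratory chain list 0.03.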

How the data were processed

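RNA from livers and colons was measured on 48 Agilent 4x44k two-colour mouse arrays, Cy3 for the mouse and Cy5 for a common reference, with no dye swap. The reference is described differently in the sources (pooled liver and intestine of the study's mice, or pregnant mice and foetuses). The authors deposited scanner files (Feature Extraction 10.10.1.1, per the file headers) with spot intensity in each channel, and a table of log2 ratios processed by the authors with limma in R 3.0.2. The direction of the deposited log2 table was settled against the scanner values. Its values correlated at 0.99972 or more over the 12 arrays with log2 ratios recomputed here without background correction. That setting differs from the main one, and a correlation does not compare scales. The array medians of the deposited table lay between 0.00075 and 0.0144, so that it is centred near 0.

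Intensities were corrected by normexp (offset 50), normalised by loess within arrays, and averaged over spots of a probe (limma 3.58.1 in R 4.3.3). Control spots were left out, as were spots with outlier flags. Local background readings brighter than their spot were first set to the array's median background, because correction without this compressed HL replicates 5 and 6 (SD of log2 ratios 0.61 and 0.55 against 0.94 and 0.93 after repair). One limma model was fitted to the 4 liver groups, and HL minus LH was taken from it with 22.55 degrees of freedom. Of the HH arrays, 2 came from 1 animal and were averaged, which left 5 HH and 6 HL, LH and LL livers. P-values were adjusted by Benjamini-Hochberg over 41172 probes. A named gene was represented by its probe of highest mean intensity; 27050 of 41174 probes carried a gene name. Promoter sequences were taken from RefSeq (GRCm38.p6). Each liver slide carried 1 array of each group, and deviations of the HL and LH arrays of a slide correlated at 0.30 to 0.71. Slides therefore pair the arrays, and the main fit held no term for this. The statistics were tested on simulated data drawn without a slide effect, so that test does not cover the pairing of arrays by slide. Between 55.1% and 63.0% of spots were well above background on the 12 arrays, and the number of arrays limits the precision.

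Genes named in the text were the 10 of lowest p in each direction with a fold over 1.5 and a probe above background on at least 6 of 12 arrays, the 3 of lowest p in each list, all sex chromosome genes, genes discussed by the study, and the lowest-p marker of each cell type. Other list members were named after their values were seen. A few genes are counted in their lists but not reported here. The members and lists (623 genes, 601 measured) were chosen with earlier results of these data known. Alternatives covered background, normalisation, filters, weights, slide, the samples fitted and each replicate in turn.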

Additional observations from a re-analysis of the deposited data

Results flagged for a closer look

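Of 278 values examined, 29 had 1 liver set far from the other 5 of its group by Dixon's criterion, which chance gives in about 1 group in 20. HL replicate 2 gave 11 of them, HL replicate 1 4, LH replicate 4 5 and LH replicate 2 4.

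In HL replicate 2 the levels were Xist 1.42, Eif2s3y −4.56, Ddx3y −3.65, Kdm5d −1.62, C6 0.40, Cyp2b10 2.34, Cyp4a12a −3.52 and Gstp1 −1.26. The list means of that liver were 2.40 for female-biased genes, −1.89 for male-biased genes and −1.20 for sex chromosome genes.

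In HL replicate 1, Cela2a was at 1.95 and Cela3b at 1.75, the pancreatic list mean was 3.17 and the selenocysteine machinery list mean was −0.09. In LH replicate 4, Adipoq was at 2.03, Abcb4 at 1.83 and Rpl39 at −0.42, with list means of 2.95 for adipocyte markers and 0.20 for ribosomal proteins.

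In LH replicate 2, Abcc4 was at −1.90, S100a8 at −0.38 and Trim24 at −0.08, and the sinusoidal endothelium list mean was −0.67. In LH replicate 3, Cyp26b1 was at −0.25 and Pcx at 1.44. Single values stood out in HL replicate 6 (Cyp26b1, 0.57), HL replicate 4 (Hadhb, 0.06) and LH replicate 5 (the bile acid list, 0.30).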

How the results depend on the processing

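No probe was called between HL and LH in 27 planned and 2 added alternatives, the latter chosen after seeing the data, and the lowest FDR over them was 0.205, with processed signals. The number of probes at an unadjusted p under 0.05, 717 in the report, was 2784 with the background as deposited, 236 with median centring, 310 with a filter on dim probes and 3129 with HL replicates 5 and 6 left out (1528 higher in HL and 1601 in LH), and 515 to 1526 when 1 replicate was left out. With the slide as a replicate block it was 1000, and the block changed no call. Among 103 named genes, 2956 of 2983 values kept their sign and 0 passed the threshold. The differences whose sign turned when 1 replicate was left out ran from −0.82 to 0.17 for Ddx3y, −0.88 to 0.18 for Eif2s3y, −0.31 to 0.020 for Kdm5d, −0.25 to 0.0082 for Tef and −0.12 to 0.16 for Uty, each highest without HL replicate 2, and from −0.34 to 0.014 for Nfil3, highest without LH replicate 1. With HL replicate 2 left out and the slide as a replicate block the values were Ddx3y 0.20, Eif2s3y 0.20, Kdm5d 0.043, Tef 0.0056, Uty 0.18 and Xist −0.073. Without HL replicates 1 and 2 and LH replicate 4 they were Clock −0.021, Cyp3a13 −0.0053, Lcn2 −0.011, Trim24 −0.024, Xist −0.053, Ddx3y 0.19, Eif2s3y 0.073, Tef 0.093 and Uty 0.17. The sign also turned for Ccne2 with processed signals (−0.16), for Orm3 with the background as deposited (−0.033), for Uty with median centring (0.012) and for Nfil3 without HL replicates 5 and 6 (0.016). The cause was not tested. In the test of liver against colon, 0 probes were called in both alternatives run, and the number at an unadjusted p under 0.05 was 937 with no background correction and 3155 with the background as deposited. The colon HL against LH fit was made in 1 setting only.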
